A study of Mus musculus with 4 samples.

Results

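The chemokine Cxcl12, its signalling receptor Cxcr4 and its atypical receptor Ackr3 (also called Cxcr7) were followed on 4 oligonucleotide arrays, 2 of a tumorigenic and 2 of a nontumorigenic subline of oncogene-transformed mouse neural stem cells. The members were all probe sets that the platform annotation assigns to these genes. They were 5 of 45101 probe sets, 1 for Ackr3, 1 for Cxcr4 and 3 for Cxcl12, and 3 of 18193 genes. The set was chosen because Ackr3 differed between the sublines, so the levels of all 3 genes in that contrast are given as a description and carry no test.

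Both sublines came from p53-/- neural stem cells of the telencephalon of C57BL/6 mice at embryonic day 14.5. They were grown as floating spheres with PDGF and bFGF, and carry the construct pCMS-EGFP-HRasL61 for GFP and an activated HRas together with a neomycin resistance vector. Stable GFP-positive cells were sorted. The subline labelled glioma-initiating cell-like (GIC) is the tumorigenic one and the other is called non-GIC. Loss of p53, the oncogene and the selection are thus common to both groups, and no untransformed stem cells were analysed here. The labels do not say whether a subline is 1 clone or whether its 2 arrays came from separate cultures, so any p-value below measures only the spread between these arrays, which may be technical.

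Cxcl12 is a secreted chemokine that is held on heparan sulphate at cell surfaces and guides migrating cells. Cxcr4 couples it to inhibitory G proteins. Ackr3 binds the same ligand with high affinity, recruits arrestins with little or no classical G-protein signalling, and takes the ligand up, so that it shapes the amount of Cxcl12 that Cxcr4 meets. In the developing brain this system is known for placing interneurons, Cajal-Retzius cells and granule cells, and its receptors have been described on neural progenitors and in glioma.

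The deposited values are log2 signals with array medians of 6.58 to 6.63, and 1 unit is a doubling of signal. A gene was tested only if 2 or more of its 4 signals exceeded 5.97, the level below which 40% of all deposited values fall, and 13366 genes met that. Differences are read only within a probe set, since probe sets differ in how brightly they hybridise. Signal is set across probe sets only to choose which probe set stands for a gene and which markers are named, and says nothing of the order of the genes' expression. The neural stem cell label was set against 12 markers, of which 11 had a probe set and 9 were tested. The intermediate filament Vim (14.50 and 14.71 in non-GIC, 14.61 and 14.59 in GIC) and the transcription factor Sox2 (11.15 and 11.44 in non-GIC, 10.20 and 10.59 in GIC) had the highest probe set signals of these. Of the 9 tested markers, 8 were lower in GIC and 1 was higher. Their median log2 difference was -0.33, against -0.01 over all tested genes. Prom1 and Olig2 lay below 5.97 on every array, and Nes fell in GIC (-2.07, limma adjusted p = 0.0459). Only the brightest of 3 Nes probe sets was read, and the Nes call was not followed without single arrays. Fabp7 had 6.58 and 6.89 in non-GIC and the same value, 5.23, on both GIC arrays. It was below the filter level in GIC and passed the filter only through the non-GIC arrays, so no test is read from it.

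Ackr3 was far higher in GIC than in non-GIC. Its only probe set read 6.29 and 6.80 in non-GIC replicates 1 and 2, and 10.39 and 9.54 in GIC replicates 1 and 2; values of other genes follow the same order. Both GIC arrays lay above both non-GIC arrays, and the gap between the nearest arrays of the groups was 2.73. GIC averaged 9.96 ± 0.60 against 6.55 ± 0.37 for non-GIC (SD, n = 2), a log2 difference of 3.42 (SE 0.50) or 10.7-fold. Depending on the pair of arrays compared, the ratio ran from 6.65-fold to 17.2-fold. Of the 13366 tested genes, 44 had a larger difference in that direction (0.329%). The replicates themselves were further apart than those of most genes. The GIC arrays differed by 0.85, more than in all but 5.45% of tested genes, and the non-GIC arrays by 0.52, more than in all but 11.6%. Ackr3 was above the filter level of 5.97 on all 4 arrays, with non-GIC replicate 1 the nearest to it. Its non-GIC signals lay near the medians of those arrays (6.61 and 6.58). Whether Ackr3 was detected in non-GIC was not tested, so the fold change may rest on a background signal there. The probe set is of a type that can bind more than 1 transcript, and no other Ackr3 probe set was available to set beside it.

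Cxcr4, the G-protein-coupled receptor of the pair, was dim throughout. Its probe set read 4.69 and 4.56 in non-GIC, and 5.82 and 6.66 in GIC. Both GIC arrays lay above both non-GIC arrays, but only GIC replicate 2 passed 5.97, so Cxcr4 failed the filter and was not among the tested genes. GIC averaged 6.24 ± 0.60 against 4.62 ± 0.09 for non-GIC (SD, n = 2), a difference of 1.61 (SE 0.43) or 3.06-fold. At such low signals a fold change can be understated, and a difference can also come from background signal. Whether Cxcr4 was detected on these arrays was not tested. The brighter GIC array was not the same for both receptors, with replicate 1 the higher for Ackr3 and replicate 2 the higher for Cxcr4. Without GIC replicate 2 the Cxcr4 ratio was 2.28-fold, and without GIC replicate 1 it was 4.10-fold.

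The ligand Cxcl12 was bright on every array, and its 3 probe sets did not move alike. Probe set 1417574_at had 10.22 and 10.09 in non-GIC and 11.69 and 12.01 in GIC. The groups did not overlap, and the means of 11.85 ± 0.22 and 10.16 ± 0.09 (SD, n = 2) differed by 1.70 (SE 0.17) or 3.24-fold. Probe set 1448823_at, the brightest of the 3 and the one that stands for the gene below, had 11.90 and 12.42 in non-GIC and 12.84 and 12.81 in GIC. The groups were apart by 0.39, which is less than the 0.52 between the non-GIC arrays, and the means of 12.82 ± 0.02 and 12.16 ± 0.37 (SD, n = 2) differed by 0.67 (SE 0.26) or 1.59-fold. Probe set 1439084_at had 7.64 and 7.23 in non-GIC and 7.22 and 7.67 in GIC. Here the groups overlapped fully, with a difference of 0.01 (SE 0.30). Averaging the 3 probe sets gave a difference of 0.79. Which Cxcl12 transcripts each probe set detects was not analysed here.

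**Figure D1:**
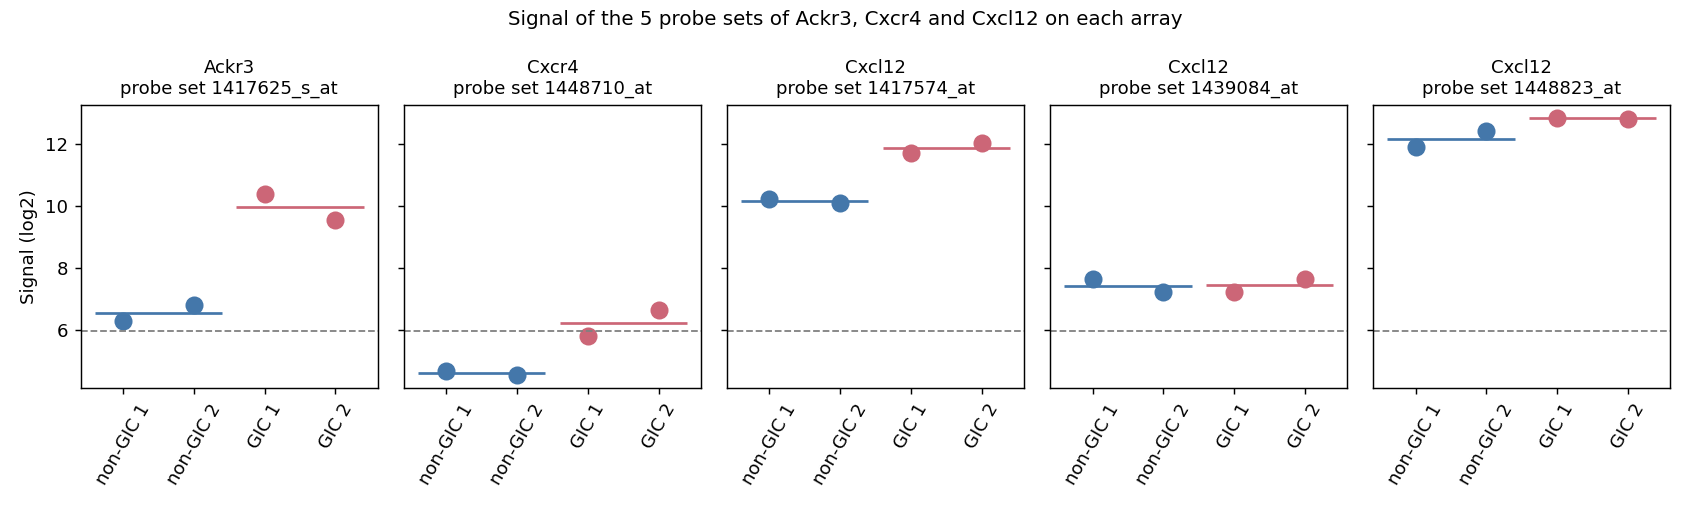
Each panel plots the log2 signal of 1 probe set on the 4 arrays, with non-GIC in blue, GIC in red, a horizontal line at each group mean (n = 2) and a dashed line at the filter level of 5.97. Ackr3 has the widest gap between the groups (3.42), Cxcr4 straddles the filter level, and the 3 Cxcl12 probe sets show differences of 1.70, 0.01 and 0.67 from left to right.

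In 4 of the 5 probe sets both GIC arrays lay above both non-GIC arrays. Over all probe sets other than controls, 20.9% had that order, and since the members were chosen on this contrast nothing is read from the count. In a bulk RNA sample, more cells with a transcript and more RNA per cell cannot be told apart.

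For the 3 genes, the stretch of 250 bases upstream of each annotated start is shown, 5′ to 3′ on the gene's own strand. The stretches come from the RefSeq promoter table (build GRCm38.p6). Capitals mark matches on either strand to any of 6 motifs. These are the TATA box (TATAAA), the Sp1 GC box (GGGCGG) and the Nrf1 site (GCGCA followed directly by its reverse complement). The others are the ACGTG form of the core bound by hypoxia-inducible factors, the Runx core (TGTGGT) and the AP-1 site (TGANTCA).
Ackr3, chr1:90203730-90203979, plus strand: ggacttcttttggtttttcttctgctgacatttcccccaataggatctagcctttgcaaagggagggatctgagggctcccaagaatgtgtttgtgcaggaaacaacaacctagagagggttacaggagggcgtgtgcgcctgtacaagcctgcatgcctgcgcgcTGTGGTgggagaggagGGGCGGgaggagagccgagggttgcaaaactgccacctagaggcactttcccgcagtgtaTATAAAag
Cxcr4, chr1:128592300-128592549, minus strand: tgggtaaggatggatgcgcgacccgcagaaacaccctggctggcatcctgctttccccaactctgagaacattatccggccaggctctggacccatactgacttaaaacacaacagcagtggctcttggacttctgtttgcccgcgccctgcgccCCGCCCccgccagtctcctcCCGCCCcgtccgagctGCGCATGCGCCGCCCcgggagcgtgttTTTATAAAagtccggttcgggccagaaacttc
Cxcl12, chr6:117168285-117168534, plus strand: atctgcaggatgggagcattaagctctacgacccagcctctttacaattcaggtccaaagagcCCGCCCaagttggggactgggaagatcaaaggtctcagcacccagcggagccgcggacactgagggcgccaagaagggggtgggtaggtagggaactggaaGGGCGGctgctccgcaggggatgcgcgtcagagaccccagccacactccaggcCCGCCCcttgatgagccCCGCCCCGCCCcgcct

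The Ackr3 stretch held 1 TATA box, 8 to 3 bases before the start, 1 GC box and 1 Runx core, 84 to 79 bases before the start. Of 32851 upstream stretches of the same length in that table, 12.4% held a TATA box, 32.7% a GC box and 14% a Runx core. The Cxcr4 stretch held overlapping TATA box matches on both strands, 3 GC boxes and an Nrf1 site 59 to 50 bases before the start, which overlaps the last GC box by 1 base. An Nrf1 site was found in 0.782% of all stretches. The Cxcl12 stretch held 5 GC boxes, of which the last 2 share a base, and no TATA box. The ACGTG form of the core for hypoxia-inducible factors (16.6% of all stretches) and the AP-1 site (6.75%) matched none of the 3. Other forms of that core, such as GCGTG, were not searched. The share of G and C was 54% for Ackr3, 61.2% for Cxcr4 and 64.4% for Cxcl12, against a median of 52.4%. A match is a description of the letters and does not show that a factor binds there.

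Genes around the axis were followed in 6 lists, with Ackr3, Cxcr4 and Cxcl12 left out. Differences were tested with limma over all 13366 tested genes, of which 1.92% passed an adjusted p of 0.05 (1.23% higher and 0.688% lower in GIC). In the lists, 6 of 121 tested genes passed. The same limma fit gave an unadjusted p under 0.05 to 2386 of the 13366 tested genes. In the lists it did so for 7 of 20 chemokines and 5 of 23 genes of ligand handling. The counts were 16 of 30 for G-protein transduction and 5 of 22 for desensitisation and sorting, and the other lists are given below. The median log2 difference over all tested genes was -0.01.

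Other chemokine receptors were mostly dim and none passed. Of 22 receptors with a probe set, 9 were tested and 13 failed the filter. Limma called 0 of the 9, with 1 at an unadjusted p under 0.05, and their median difference was 0.04 with a range from -0.18 to 0.94. Cxcr6, the receptor of the membrane-bound chemokine Cxcl16, gives both the upper end of that range and the unadjusted p. It had 5.55 and 5.64 in non-GIC and 6.16 and 6.91 in GIC, a difference of 0.94. It passed the filter only through the GIC arrays, where it is high, and its other probe set lay below the filter level on every array, so no test is read from it. Cxcr3, which shares the ligand Cxcl11 with Ackr3, had a difference of 0.29 (limma adjusted p = 0.307). Of the other atypical receptors, the differences were -0.03 for Ackr1, -0.18 for Ackr2 and 0.14 for Ackr4. These 3 were named after their values were seen, for their kinship with Ackr3.

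Among 20 tested chemokines of 34 with a probe set, 1 fell and 19 did not pass, with a median difference of -0.03. The gene that fell was Cx3cl1, a membrane-tethered chemokine (fractalkine) that neurons are known to make. Its signals were 12.31 and 12.14 in non-GIC and 10.33 and 9.61 in GIC. The groups were far apart, with a difference of -2.25 (SE 0.28, limma adjusted p = 0.0431), and the signal in GIC was 4.77-fold lower. All 4 Cx3cl1 probe sets were lower in GIC with differences from -0.60 to -2.25. The call was lost without non-GIC replicate 1 (limma adjusted p = 0.221) or non-GIC replicate 2 (0.173), and kept without GIC replicate 1 (0.0357) or GIC replicate 2 (0.0438). For another chemokine, Ccl5, the difference ran from 0.82 to 1.88 when single arrays were left out. With all arrays Ccl5 had 6.91 and 7.03 in non-GIC and 8.85 and 7.79 in GIC (1.35, limma adjusted p = 0.172). Cxcl11, the other chemokine known to bind Ackr3, lay below the filter level on every array, at 5.57 to 5.89. Ccl5 and Cxcl11 were named after their values were seen.

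The list of shared ligands, ligand cleavage and ligand presentation had 23 tested genes of 25 with a probe set, of which 1 rose and 22 did not pass. Sdc4, a cell-surface proteoglycan whose heparan sulphate chains hold chemokines, had 10.20 and 10.47 in non-GIC and 12.34 and 12.06 in GIC. The difference was 1.86 (SE 0.19, limma adjusted p = 0.0319) or 3.63-fold. The other Sdc4 probe set gave -0.12, and with the mean of both the call was lost (0.87, limma adjusted p = 0.0853). It was also lost without non-GIC replicate 1 (0.183), non-GIC replicate 2 (0.131) or GIC replicate 1 (0.095), and kept without GIC replicate 2 (0.0497). The median difference of the list was 0.03.

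Further ligands reported for Ackr3 or Cxcr4 did not pass, and they are named here for that role after their values were seen. Penk, the precursor of the enkephalins, had 5.99 and 5.89 in non-GIC and 9.21 and 7.92 in GIC. Its difference of 2.63 (SE 0.44, limma adjusted p = 0.0749) was carried more by GIC replicate 1. Of the non-GIC arrays only replicate 1 was above the filter level, by a small margin. The Penk difference ran from 1.98 to 3.27 when single arrays were left out. Adm, the peptide hormone adrenomedullin, had 6.72 and 6.68 in non-GIC and 7.89 and 7.40 in GIC (0.95, limma adjusted p = 0.114). Mif, a cytokine that binds Cxcr4 and Cd74, was bright on all arrays, at 13.51 and 13.30 in non-GIC and 13.60 and 13.69 in GIC (0.24, limma adjusted p = 0.407).

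In the G-protein transduction list 2 genes rose, 1 fell and 27 of 30 tested genes did not pass, with a median difference of -0.06. Gnai1, an inhibitory alpha subunit of the kind Cxcr4 couples to, had 9.64 and 9.89 in non-GIC and 12.90 and 12.05 in GIC. The difference was 2.71 (SE 0.33, limma adjusted p = 0.0379) or 6.54-fold, and all 3 Gnai1 probe sets were higher in GIC, by 2.35 to 2.71. The related subunits Gnai2 (-0.43, limma adjusted p = 0.438) and Gnai3 (-0.24, limma adjusted p = 0.532), named after their values were seen, did not pass. Without non-GIC replicate 1 or 2 or GIC replicate 1 the Gnai1 call was lost (limma adjusted p = 0.201, 0.155 and 0.062), and it was kept without GIC replicate 2 (0.0272). It was also just lost when probe sets of the types that bind several transcripts were left out (2.63, limma adjusted p = 0.0508).

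Elmo2, part of the Elmo-Dock exchange factor that activates Rac in cell migration, had 9.38 and 9.50 in non-GIC and 10.65 and 10.66 in GIC. The replicates lay close together and the difference was 1.22 (SE 0.16, limma adjusted p = 0.0463), with 0.70 from its other probe set. Gng11, a gamma subunit of the G-protein complex, had 8.26 and 8.64 in non-GIC and 6.68 and 6.85 in GIC. The difference was -1.68 (SE 0.19, limma adjusted p = 0.0346) or 3.21-fold lower. Leaving out any single array ended both calls. The limma adjusted p for Elmo2 was 0.271 and 0.206 without non-GIC replicate 1 and 2 and 0.14 and 0.0946 without GIC replicate 1 and 2. For Gng11 it was 0.0835, 0.0944, 0.13 and 0.0761 in the same order. The Elmo2 call was also lost with median centring (0.0504), with no level filter (0.0543) and after averaging its probe sets (0.0591).

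Of 22 tested genes for receptor desensitisation and sorting, 1 fell and 21 did not pass, with a median difference of -0.06. Cav1, the main coat protein of caveolae, had 12.31 and 12.59 in non-GIC and 10.19 and 10.56 in GIC. The difference was -2.08 (SE 0.21, limma adjusted p = 0.0302) or 4.22-fold lower. The call was lost without non-GIC replicate 1 (0.141), non-GIC replicate 2 (0.147) or GIC replicate 1 (0.0707) and kept without GIC replicate 2 (0.0411). The arrestins, through which Ackr3 is known to act, were named after their values were seen. Arrb1 had 7.18 and 7.70 in non-GIC and 5.97 and 6.03 in GIC, a difference of -1.44 that just missed the threshold (limma adjusted p = 0.0511). It passed with quantile normalization (0.0417), genes averaged over probe sets (0.048) and a crossed replicate block chosen after seeing the data (0.0304). Averaging leaves its own values unchanged, since it has 1 probe set. Arrb1 missed with median centring (0.0514), no level filter (0.0558), robust eBayes (0.0527), eBayes without trend (0.0698) and the replicate number as a block (0.13). Without single arrays its difference ran from -1.70 to -1.18. Arrb2 had 9.43 and 8.71 in non-GIC and 8.84 and 9.07 in GIC, and its groups overlapped (-0.11, limma adjusted p = 0.874). Itch, the ubiquitin ligase that sends Cxcr4 to lysosomes and likewise named after its values were seen, had a difference of 0.88 (limma adjusted p = 0.0984).

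None of 17 tested transcriptional regulators reported for these genes passed limma, with 4 at an unadjusted p under 0.05 and a median difference of 0.08. Foxc1, a forkhead factor known to control Cxcl12 in marrow stroma, had 8.90 and 9.12 in non-GIC and 10.24 and 9.86 in GIC (1.04, limma adjusted p = 0.107). Snai1, a repressor of epithelial genes, had a difference of 0.998 (limma adjusted p = 0.193). The hypoxia factors, named after their values were seen, were Epas1 with 7.09 and 9.79 in non-GIC and 11.91 and 10.33 in GIC (2.68, limma adjusted p = 0.284) and Hif1a with a difference of -0.04. For this Epas1 probe set the 2 non-GIC arrays differed by more than the nearest arrays of the groups. The other Epas1 probe set had 7.32 and 7.28 in non-GIC and 8.34 and 7.88 in GIC, with close non-GIC replicates, groups that did not overlap and a smaller difference of 0.81 or 1.75-fold.

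**Figure D2:**
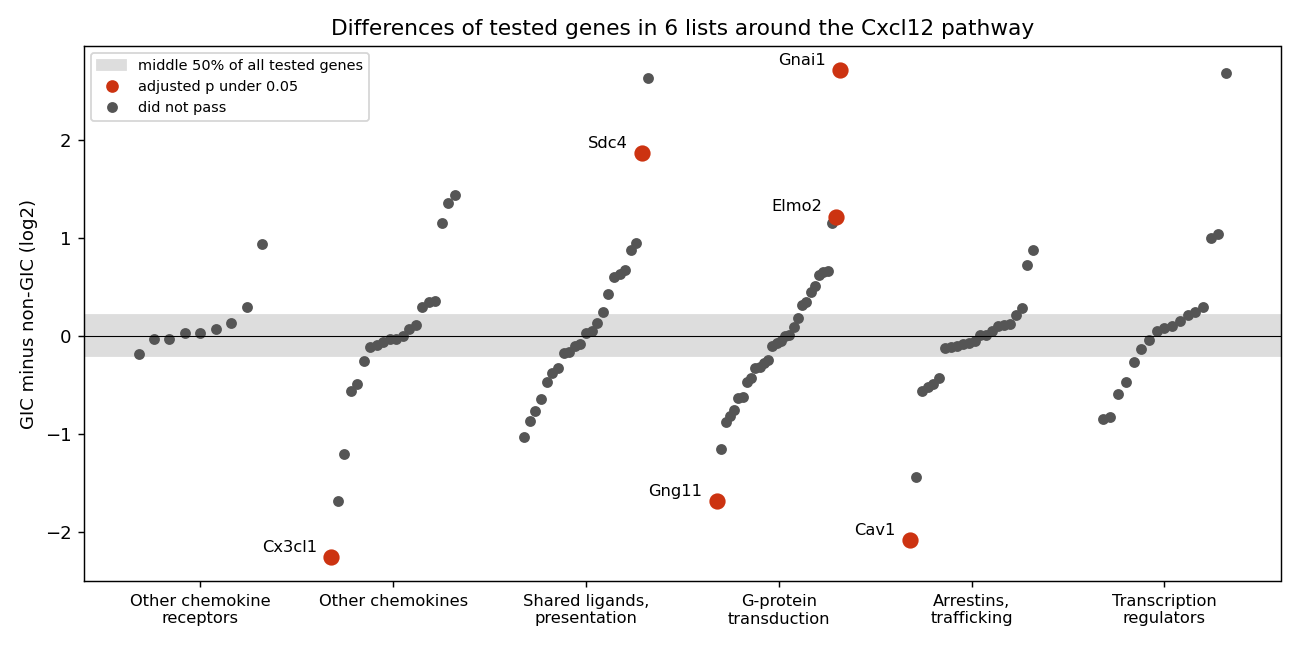
Each point is a tested gene of 1 of the 6 lists, placed by its GIC minus non-GIC difference on the log2 scale and ordered by it within the list. The 6 named points in red passed limma's adjusted p of 0.05, and the grey band spans the middle 50% of all tested genes (-0.20 to 0.22).

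Markers of cells that are known to carry these genes were read beside them. Over the 4 tested of 9 endothelial markers the mean signal was 7.35 and 7.19 in non-GIC and 7.47 and 7.41 in GIC, with Flt1 (8.64 and 8.08 in non-GIC, 9.37 and 9.18 in GIC) and Kdr having the highest probe set signals. Pecam1, Cdh5, Tek, Emcn and Tie1 lay below the filter level on every array. Over the 6 tested of 10 mural and meningeal markers, among them Col1a1 and Pdgfrb, the mean signal was 9.95 and 10.00 in non-GIC and 10.51 and 9.65 in GIC. GIC replicate 1, the array with the higher Ackr3 signal, was the highest there, but the 6 markers did not move alike. Of them, 4 had a difference above 0 and 2 below, from -2.06 to 1.26. The lowest was Col1a1, with 13.84 and 14.57 in non-GIC and 13.59 and 10.70 in GIC. Rgs5 and Lum lay below the filter level on every array. Over the 4 tested of 9 microglia and leukocyte markers, among them Csf1r and Spi1, the mean signal was 6.91 and 6.99 in non-GIC and 6.97 and 6.89 in GIC. Ptprc, Aif1, Itgam and Tyrobp lay below the filter level on every array. Limma called 0 markers of these 3 lists, with 1 in each at an unadjusted p under 0.05, and their part in the Ackr3 difference was not tested. Of 10 neuronal markers 6 were tested, of which Map2 fell (-2.29, limma adjusted p = 0.019) and Tubb3 had a difference of 1.15 (limma adjusted p = 0.363). The remaining 4, Dcx, Reln, Gad2 and Snap25, lay below the filter level on every array. Map2 has 4 probe sets, of which only the brightest was read, and the Map2 call was not followed without single arrays.

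The genes with the profile nearest to Ackr3 were sought by the Euclidean distance between log2 signals over the 4 arrays, each gene centred on its own mean. They were Phactr2, a regulator of protein phosphatase 1 and actin (distance 0.37), the cyclic AMP phosphodiesterase Pde7b (0.42), the copper-carrying ferroxidase ceruloplasmin, Cp (0.47), the whey acidic protein-type Wfdc3 (0.52) and the homeobox gene Hoxd8 (0.54). The median distance of all tested genes from Ackr3 was 3.52. The GIC minus non-GIC differences of these 5 genes ran from 3.09 for Phactr2 to 3.47 for Wfdc3, and each had its higher GIC signal on replicate 1. With only 4 arrays of 2 sublines, a gene with a difference of about this size and similar replicates lies near by construction. Phactr2 (3.63 and 3.91) and Hoxd8 (4.85 and 5.18) lay below the filter level on both non-GIC arrays. These genes passed the filter only through the GIC arrays, where they are high. Pde7b was below it on non-GIC replicate 1 (5.61). For Cxcl12 the nearest were Fbxl4 (0.03), Btg1 (0.06) and Specc1l (0.08), against a median of 0.85. Cxcr4 was not tested and has no such list.

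**Figure D3:**
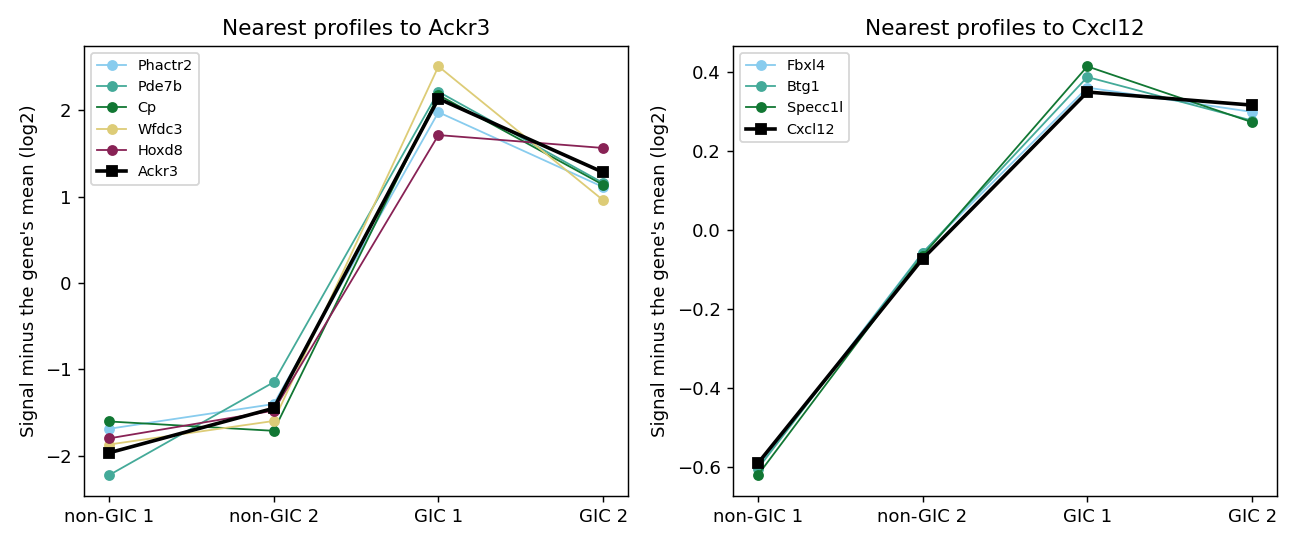
The plot gives the log2 signal minus each gene's mean over the 4 arrays for Ackr3 (left, black squares) with its 5 nearest genes, and for Cxcl12 (right, black squares) with its 3 nearest, and lines only join the values of 1 gene. On the left the GIC arrays are high in every gene, and on the right non-GIC replicate 1 is the lowest array in every gene.

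The chromosomal neighbours of Ackr3 and Cxcr4 included no called gene, and 1 neighbour of Cxcl12 was called. Among the 5 nearest tested genes on each side of Ackr3 on chromosome 1, limma called 0 of 10, with 0 at an unadjusted p under 0.05. Of these, 9 had a difference below 0, and the range was -1.31 to 0.06. Around Cxcr4 8 of 10 and around Cxcl12 7 of 10 were below 0, and the median over all tested genes was -0.01. Ramp1, a partner of peptide hormone receptors that lies close to Ackr3, had -1.03 (limma adjusted p = 0.456) with 6.95 and 8.73 in non-GIC and 7.00 and 6.62 in GIC. Around Cxcr4, also on chromosome 1, limma called 0 of 10, with 2 at an unadjusted p under 0.05, and the range was -0.61 to 0.22. Around Cxcl12 on chromosome 6 limma called 1 of 10, Zfand4, which fell (-1.52, limma adjusted p = 0.0362), and the range was -1.52 to 0.33. Ramp1 and Zfand4 were named after their values were seen, and the Zfand4 call was not followed without single arrays.

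**Figure D4:**
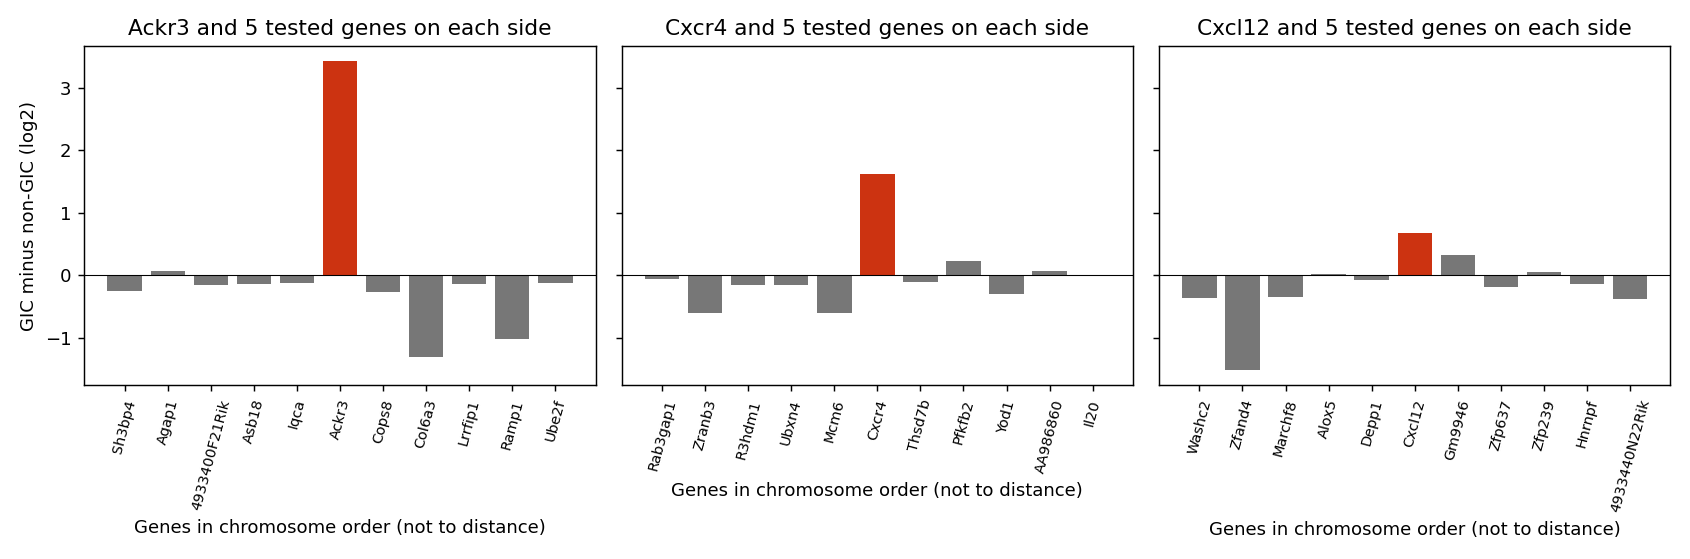
Bars give the GIC minus non-GIC difference on the log2 scale for each member (red) and the 5 nearest tested genes on either side (grey), in chromosome order and not to distance. The red bars reach 3.42 for Ackr3, 1.61 for Cxcr4 and 0.67 for Cxcl12, and the highest grey bar in the 3 panels is 0.33.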

How the data were processed

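Biotin-labelled RNA from in vitro transcription (Affymetrix One-Cycle) was hybridised for 2 GIC and 2 non-GIC samples, per the labels' protocols. The deposited table gives 1 log2 value per probe set and array; base 2 was taken from their span of 2.75 to 15.12. Near-equal medians show a common scale. How the authors corrected, summarised and normalized the signals is not given in the sources used here, and detection calls were not used.

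Of 45101 probe sets, 34945 had 1 gene symbol in the platform annotation, 932 had several, 9160 were unnamed here and 64 were controls. Symbols were updated through the Entrez identifier (assembly GRCm38.p6, for names and gene order). The brightest probe set by mean stood for a gene. Limma 3.58.1 in R 4.3.3 (lmFit, eBayes with trend, group as the only term) was run two-sided over 13366 genes with Benjamini-Hochberg adjustment at 0.05, with 2 residual and 2.72 prior degrees of freedom. An exact permutation test of 2 against 2 cannot go below p = 0.333. The procedure was tested on simulated data. Alternatives were other scalings, filters, probe set rules and eBayes settings, a replicate block, and leaving out each array. SEs of the members come from their own SDs, those of other genes from limma. The number of arrays limits the precision. Figures were drawn with matplotlib 3.10.9.

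The members, gene lists and motifs were chosen with earlier results of these data known. Named were every probe set of the members, the changed genes of each pathway list (where none changed, the 2 lowest p), the nearest profiles, and of each marker list the 2 brightest and those that changed. Genes outside this rule are marked, except defining markers, which are also named where they lay below the filter level on every array. Listed genes with no probe set named here were not analysed.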

Additional observations from a re-analysis of the deposited data

How the results depend on the processing

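The number of arrays is the main limit, and every value rests on 2 against 2. The Ackr3, Cxcr4 and Cxcl12 differences were 3.43, 1.61 and 0.67 with quantile normalization, and 3.39, 1.58 and 0.63 with median centring. Array medians were near equal, so centring could move them little. On the probe set that stands for each gene, both GIC arrays lay above both non-GIC arrays. Leaving out 1 array therefore cannot reverse a direction. The filters, eBayes settings and replicate blocks cannot change a difference of group means, so they say nothing of it. Averaging probe sets left Ackr3 and Cxcr4, with 1 probe set each, as they were. All 3 Cxcl12 probe sets had a difference above 0, so their mean of 0.79 could not change direction. Leaving out each array in turn gave 2.99 to 3.85 for Ackr3, 1.19 to 2.04 for Cxcr4 and 0.41 to 0.92 for Cxcl12. For Cxcl12 these alternatives followed probe set 1448823_at. Its other probe sets, which did not move alike, entered only through the mean of probe sets. Leaving out probe sets that bind several transcripts gives no Ackr3 value, since its only probe set is of that type. Leaving out single arrays changed the number of genes called from 257 to between 12 and 188. The lists then had 0 to 2 chemokines, 0 to 2 genes of ligand handling, 0 to 1 of G-protein transduction and 0 to 1 of desensitisation and sorting called. A lone remaining array was taken to vary as much as the pair in the other subline. Quantile normalization and the mean of probe sets each called 2 genes of desensitisation and sorting in place of 1, and the mean of probe sets called 0 of ligand handling in place of 1. Deviations of same-numbered arrays correlated at -0.32 over tested genes, which gives no ground for pairing the arrays by number. It does not show how the arrays were processed. With the replicate number as a block, 29 genes were called and 0 in the chemokine, ligand handling, G-protein and desensitisation lists. A crossed replicate block, chosen after seeing the data, called 685 genes, with 2 chemokines, 2 genes of ligand handling, 5 of G-protein transduction, 2 of desensitisation and sorting and 3 regulators.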
